A study of Mus musculus with 4 samples.

Results

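The mRNA of collagens, matrix glycoproteins and the enzymes that build and remodel the extracellular matrix was compared between mouse embryonic fibroblasts given siRNA against eIF1A and cells that received a negative control siRNA. The genes were taken from the deposited table by symbol: collagen chains, fibulins and other elastic fibre proteins, laminins, nidogens and perlecan, prolyl and lysyl hydroxylases, lysyl oxidases, matrix metalloproteinases, ADAMTS proteases, their inhibitors, and adhesive glycoproteins and proteoglycans. This gave 58 genes of the 4878 in the table. GENCODE M21 has 166 protein-coding genes with matching symbols, and the other 108, among them Col1a1, Col1a2, Col3a1, Col6a3, Dcn, Lum, Eln, Fbn1 and Postn, were not analysed here. The counts below therefore speak of the genes present and not of the whole matrix. Of the 58 genes, 56 encode proteins of the matrix or its assembly. The other two match by symbol only: Col4a3bp encodes the ceramide transfer protein, and Mfap3 encodes a membrane protein.

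The cells were fibroblasts at passages 5 to 8, grown in standard conditions and transfected with a lipid reagent. There were 2 control libraries and 2 eIF1A knockdown libraries, with no other genotype or treatment named for either group. eIF1A acts in translation initiation, where it promotes scanning and the choice of a start codon, and the comparison asks which mRNA levels differ when it is targeted. Bulk MARS-seq counted the 3′ ends of polyadenylated RNA, and 2152331 to 2595625 reads per library were recovered from the normalised counts. Nothing in the labels states that replicate libraries derive from separate cultures. The p-values then rest only on how far these libraries spread, with each gene's spread drawn toward a trend over all genes. That spread may be technical. The mouse genes for eIF1A were not analysed here, so the labels were not checked against the depth of the knockdown. In bulk RNA, fewer cells of a type and less RNA per cell cannot be told apart.

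Fibroblasts are the main makers of interstitial matrix. Collagen chains are hydroxylated on prolines and lysines and folded into a triple helix in the endoplasmic reticulum, then trimmed and crosslinked outside the cell. Elastic fibres form on a scaffold of microfibrils with the help of fibulins, basement membranes are sheets of laminin and collagen IV joined by nidogen and perlecan, and metalloproteinases with their inhibitors turn the matrix over.

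Most of the matrix genes had lower mRNA in knockdown cells, the collagen chains and several glycoproteins most deeply and the basement membrane genes least often. Of 57 genes tested, 38 fell, 1 rose and 18 did not pass (limma with Benjamini-Hochberg adjustment over all genes tested, adjusted p under 0.05), while 21.6% of all 4605 genes tested were called lower and 15.9% higher. A fall of at least 2-fold was called in 27 of the 57, against 12.5% of all genes. Both knockdown libraries lay below both controls in 43 of the 57 genes and above them in 4, where 35.5% and 32.4% of all genes tested did so. The median log2 fold change was −1.01, beside −0.01 over all genes. Each fold change was computed from log2(normalised count + 1). The gene left out of the test was Thbs2, whose mean was under the required 5 normalised counts. Of the tested genes 7 had a group mean under 5 and entered through their other group. They were Adamts1, Adamts2, Cilp2, Col8a2, Lama4, Lrrc17 and P4ha1. Those called, here and in the class counts, add no support.

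By class, 6 of 7 collagen chains fell, 8 of 9 glycoproteins and proteoglycans, 5 of 6 elastic fibre genes, 10 of 13 genes of collagen folding and crosslinking, 5 of 9 proteases and inhibitors and 4 of 11 basement membrane genes. Median log2 fold changes ran from −2.59 for the collagen chains through −1.69 for glycoproteins, −1.26 for elastic fibres, −0.94 for folding and crosslinking and −0.74 for proteases to −0.53 for the basement membrane. With the GC trend removed the medians were −2.22, −1.65, −1.33, −0.87 and −0.45 in the same order, and 0.05 for the basement membrane. The basement membrane median was −0.18 at equal totals, −0.25 without control replicate 1 and −0.28 without knockdown replicate 1, and −0.81 without control replicate 2. Differences between classes were not tested. Summed over all 58 genes, the control libraries held 59463 and 51317 normalised counts and the knockdown libraries 25788 and 24658. As a share of the library totals this was 2.77% and 2.44% in controls and 1.48% and 1.54% in knockdowns.

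Base composition and 1 control library moved with these values. The median GC content of the longest transcript was 54.6% in the matrix genes tested and 50.9% in all genes tested, and across all genes the log2 fold change was lower where GC was higher (Spearman's rho −0.44 over 4600 genes that share the same 4 libraries, a description only). With a GC trend removed from each library, 26 of the 57 genes were called lower, against 14.4% of all genes, and the median was −0.75. At equal library totals 27 were called lower, against 13.1% of all genes, and the median of all genes was 0.34 on the log2 scale. Control 1 exceeded control 2 in 47 of the 57 genes, and the share of all genes that did so was not counted. Without control replicate 1 the median of the matrix genes was −0.81, beside 0.0085 over all genes. Without control replicate 2 it was −1.18, beside −0.046. The calls lost with the GC trend removed were those of Col18a1, Col4a2, Fbln2, Lama5, Mmp14, P3h1, P3h4, P4ha3, Serpinh1, Sparc, Timp2 and Tnc. At equal totals the calls of Col4a2, Fbln2, Lama5, Loxl2, Mmp14, P3h4, P4ha3, Serpinh1, Sparc, Timp2 and Tnc were lost. The part of GC content in the result was not tested further. In each of 16 other settings 24 genes were called lower, leaving aside the higher filter on low values, under which Adamts2 and Col8a2 were no longer tested. Of these 24, Adamts2, Cilp2, Col8a2 and Lrrc17 had knockdown means under 5 and passed the filter only through the controls, so their calls in every setting support nothing. The 24 were Col6a1, Col6a2, Col16a1, Col5a1, Col5a3 and Col8a2, then P4ha2, Pcolce, Plod1 and Plod2, then Emilin1, Adamtsl4, Efemp1 and Efemp2, then Lamb2, then Bgn, Cilp2, Lrrc17, Olfml3, Ssc5d and Thbs3, and Mmp2, Mmp11 and Adamts2.

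**Figure D1:**
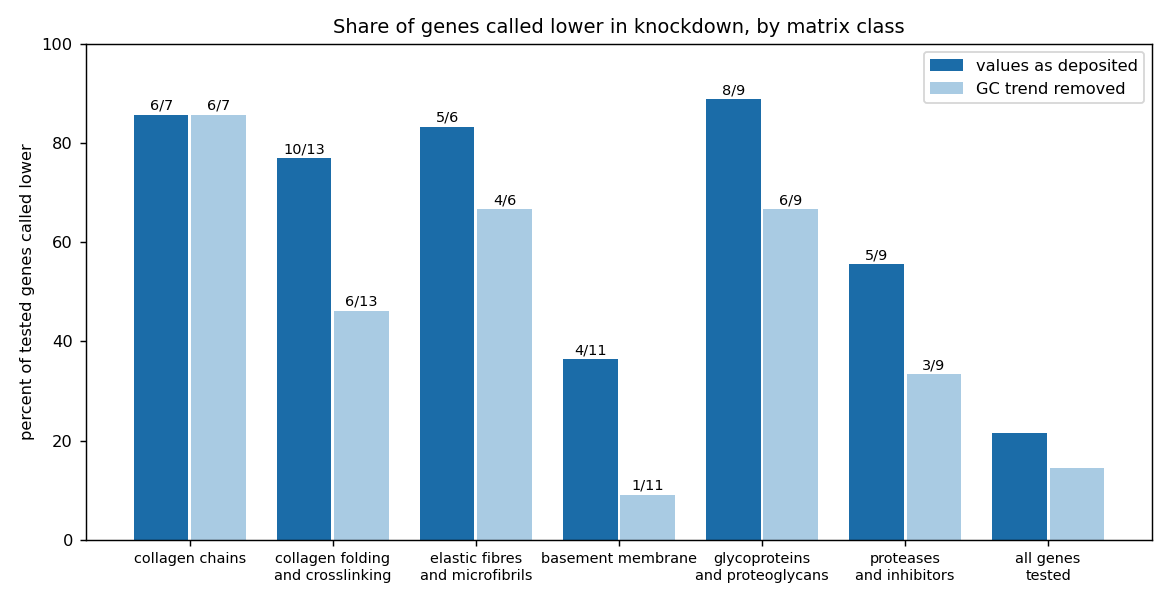
Percent of tested genes called lower in knockdown (y axis) in each of 6 matrix classes and in all genes tested (x axis), for the values as deposited (dark bars) and with a GC trend removed (light bars), with counts above the class bars. Collagen chains have 6 of 7 lower in both, among them Col8a2, which entered the test through the controls. The basement membrane class goes from 4 of 11 to 1 of 11. Over all genes tested 21.6% and 14.4% were lower.

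The sequence just before a RefSeq start site is shown for 3 genes that fell together and belong to different classes: Col6a2, a collagen chain, P4ha2, a prolyl hydroxylase subunit, and Olfml3, a glycoprotein. Each run is the 250 bases before the start, read 5′ to 3′ on the gene's strand in GRCm38.p6, and capitals mark GC boxes (GGGCGG on either strand), the box to which Sp1-type factors bind, and the core ACGTG of the hypoxia response element. The windows are chr10:76623631-76623880 on the minus strand, chr11:54100674-54100923 on the plus strand and chr3:103738002-103738251 on the minus strand. The start used for P4ha2 lies inside the gene's GENCODE span, and none of the windows overlaps an annotated exon.
Col6a2: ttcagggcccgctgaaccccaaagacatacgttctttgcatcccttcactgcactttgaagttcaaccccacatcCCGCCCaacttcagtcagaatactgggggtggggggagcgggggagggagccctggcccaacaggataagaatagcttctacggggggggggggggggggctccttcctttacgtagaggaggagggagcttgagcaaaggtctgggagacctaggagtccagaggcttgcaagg
P4ha2: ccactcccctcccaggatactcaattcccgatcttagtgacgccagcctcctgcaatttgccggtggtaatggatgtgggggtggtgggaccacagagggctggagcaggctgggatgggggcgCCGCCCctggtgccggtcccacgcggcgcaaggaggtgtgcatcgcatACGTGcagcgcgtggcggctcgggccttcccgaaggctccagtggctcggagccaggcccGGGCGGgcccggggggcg
Olfml3: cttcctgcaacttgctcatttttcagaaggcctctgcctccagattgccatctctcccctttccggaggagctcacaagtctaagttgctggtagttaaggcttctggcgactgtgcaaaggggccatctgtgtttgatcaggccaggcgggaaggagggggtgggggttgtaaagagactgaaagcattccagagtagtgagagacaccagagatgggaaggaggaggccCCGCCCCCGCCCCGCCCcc
Olfml3 has 3 GC boxes within the last 19 bases before its start. P4ha2 has 2 GC boxes and 1 ACGTG, which begins 78 bases before the start, and Col6a2 has 1 GC box. Col6a2 has another RefSeq start, at position 76623404, whose window overlaps an annotated exon and is not shown. That window has 3 GC boxes, which begin 67, 15 and 11 bases before the start. The windows of Col6a1, Emilin1 and Lamb2, which also fell, overlap annotated exons and are not shown. They have 0 GC boxes. The window of Lamb1, the gene called higher, overlaps an exon too and has 2 GC boxes. RefSeq windows were found for 44 of the 58 genes, 51 windows in all. On either strand, GGGCGG was present in 78.4% of them, in 62.7% of 4955 windows of genes in the table and in 32.7% of all 32851 windows. ACGTG was present in 21.6% of matrix gene windows and 23.5% of windows of genes in the table. TATAAA was present in 11.8% and 5.87%, CCAAT in 31.4% and 35.7%, TGANTCA, an AP-1 site, in 3.92% and 3.83%, and TGATGNAA, the core of the amino acid response element, in 1.96% and 2.02%. A match describes the letters and not the binding of a factor.

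Collagen chains had the lowest median of the classes, and 6 of 7 fell, against 21.6% of all genes tested. Collagen VI, which forms beaded microfibrils around cells, was represented by its first pair of chains. Col6a1 (mm10 chromosome 10, 76708792 to 76726168, minus strand) had 1930.0 and 1328 normalised counts in controls 1 and 2 and 202 and 199.7 in knockdowns 1 and 2. It fell 7.94-fold (log2 −2.99, standard error 0.23, adjusted p = 2.06e-08). Col6a2 lies on the same strand of the same chromosome, at 76595762 to 76623630, with 85161 bases between the 2 genes. It had 1448 and 948 in the control libraries and 200.2 and 188 in the knockdown libraries, a fall of 6.01-fold (adjusted p = 8.98e-08). The knockdown libraries agreed closely in both genes and were far below either control. The ratio of Col6a1 to Col6a2 was 1.33 and 1.40 in controls and 1.01 and 1.06 in knockdowns, lower in both knockdown libraries. Such ratios are given as values, with no test.

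Col16a1, a collagen that associates with fibrils, had 449 and 305 in controls and 37.9 and 42.8 in knockdowns and fell 8.99-fold (adjusted p = 6.08e-08). Collagen V starts the assembly of collagen fibrils, and both of its chains in the table fell. Col5a3 went from 198 and 180.2 to 48.4 and 47.5, 3.87-fold lower (adjusted p = 1.73e-05). Col5a1 went from 687 and 426 to 233 and 189, 2.57-fold lower (adjusted p = 2.87e-04). Col8a2, a short-chain collagen that forms networks, had 46.3 and 20.3 in controls and 1 read in each knockdown library. Its summed reads, 72 and 2, gave a ratio of controls to knockdowns of 43.4 (95% counting interval 11.6 to 365), which covers counting error only. The chain that did not pass was Col12a1, another fibril-associated collagen, at 33.5 and 21.9 in controls and 9.69 and 23.1 in knockdowns, where the groups overlapped (95% interval of the log2 difference −1.83 to 0.22, adjusted p = 0.212). With the GC trend taken out 6 of 7 were called lower, against 14.4% of all genes. Col8a2 is among them, had a knockdown mean of 0.743 and entered the test through the controls, so its calls add no support. Falls were smaller: 5.12-fold for Col16a1, 2.19-fold for Col5a3, 1.71-fold for Col5a1 and 11.4-fold for Col8a2.

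**Figure D2:**
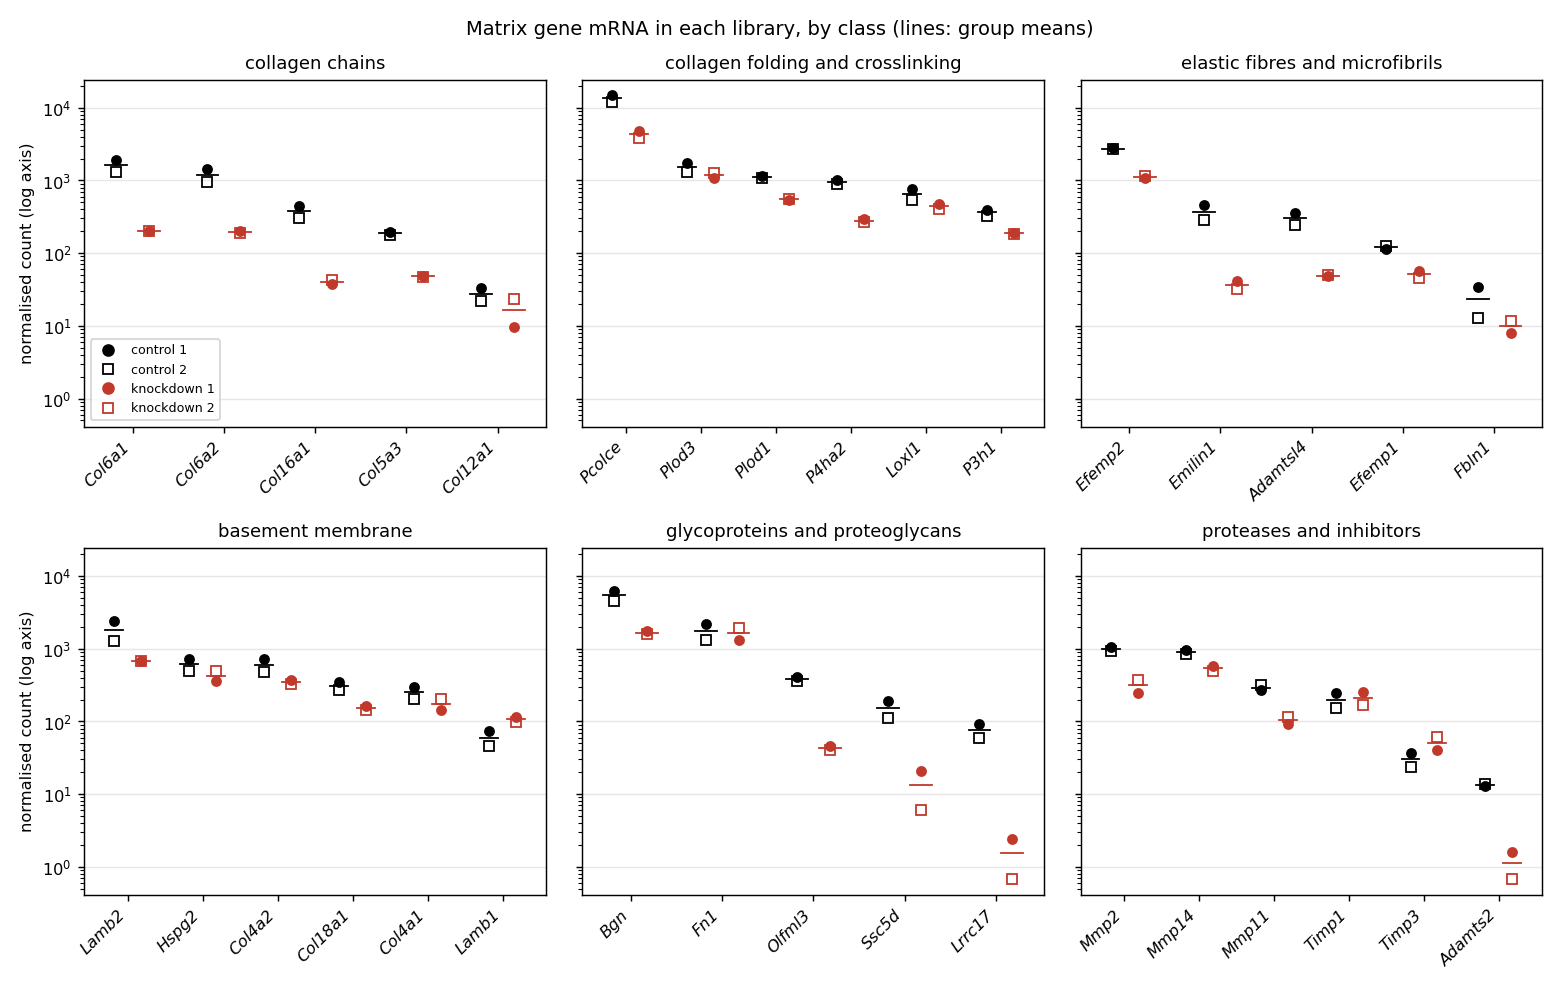
Normalised counts (y axis, log) of 33 matrix genes in 6 classes, with a point for each control (black) and knockdown (red) library and a line at each group mean. Col6a1 goes from a mean of 1629 to 201 with no overlap, Fn1 overlaps between groups, and Lamb1 lies higher in both knockdown libraries.

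Of 13 genes for collagen folding and crosslinking 10 fell, against 21.6% of all genes tested. Prolyl 4-hydroxylase stabilises the triple helix, and its 3 catalytic subunit genes were all called lower. Of these, P4ha1 had a knockdown mean of 4.59, under the required 5, and entered the test through the controls. Its call therefore adds no support, and that of P4ha3 depended on the libraries used. P4ha2 (mm10 chromosome 11, 54100095 to 54131665, plus strand) had 1022 and 907 in controls and 295 and 265 in knockdowns, a fall of 3.43-fold (log2 −1.78, standard error 0.21, adjusted p = 3.30e-06). P4ha3, with 24.6 and 26.0 (controls) and 7.27 and 8.15 (knockdowns), was 3.02-fold lower (adjusted p = 0.0189), but did not pass when control replicate 2 was left out (adjusted p = 0.0501), nor without knockdown replicates 1 (0.0790) and 2 (0.0520). P4ha1 was at 30.5 and 15.4 in controls and 6.46 and 2.72 in knockdowns, 4.32-fold lower (adjusted p = 0.0119), a call lost without control replicate 1 (0.0922) and without knockdown replicate 2 (0.0789).

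The lysyl hydroxylases prepare collagen for crosslinking, and 2 of the 3 genes fell. Plod1 fell from 1143 and 1081 to 533 and 563, 2.03-fold (adjusted p = 7.50e-04). Plod2, which modifies the telopeptides at the ends of the chains, fell from 141 and 96.6 to 38.7 and 57.1, 2.45-fold (adjusted p = 0.00316). Plod3, which also adds sugars to collagen, had 1730.2 and 1297 in controls and 1098 and 1254 in knockdowns and did not pass (log2 interval −0.81 to 0.11, adjusted p = 0.224). The ratio of P4ha2 to Plod3 was 0.590 and 0.699 in controls and 0.269 and 0.211 in knockdowns, so both knockdown libraries lay below both controls.

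P3h1, a prolyl 3-hydroxylase, fell from 396 and 329.5 to 189 and 186, 1.92-fold (adjusted p = 0.00303). It did not pass once the GC trend was taken out (adjusted p = 0.101). P3h4, a partner of lysyl hydroxylase 1 without enzyme activity of its own, had 742 and 881 (controls) and 544 and 554 (knockdowns). Serpinh1 encodes HSP47, the chaperone specific to collagen, and had 4094 and 4449.9 in controls and 2723 and 2934 in knockdown libraries. These 2 genes were 1.47-fold and 1.51-fold lower with adjusted p = 0.0435 and 0.0397. Both calls were lost under several settings, with log2 differences of 0.08 and −0.13 once the GC trend was removed. P3h4 did not pass without control replicate 2 (adjusted p = 0.176) or without knockdown replicate 1 (0.157) or 2 (0.150). Serpinh1 did not pass with any one library left out (adjusted p from 0.0888 to 0.155).

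Outside the cell, Pcolce enhances the enzyme that trims the C-terminal end of procollagen. It was at 14747 and 12084 in control and 4859 and 3780.1 in knockdown libraries, a fall of 3.11-fold (adjusted p = 4.50e-05), which was 2.06-fold under quantile normalisation. Its ratio to Serpinh1 went from 3.60 and 2.72 to 1.78 and 1.29. Among the lysyl oxidases, which crosslink collagen and elastin, Loxl2 fell from 444 and 292 to 218 and 205 (1.70-fold, adjusted p = 0.0181), a call lost without control replicate 1 (0.189) and without knockdown replicate 2 (0.0806). Loxl1 had 772 and 545 (controls) and 479 and 406 (knockdowns) and did not pass (log2 interval −1.03 to −0.08, adjusted p = 0.0617). Without control replicate 2 it did (adjusted p = 0.00679). Lox had 34.4 and 38.1 (controls) and 20.2 and 29.2 (knockdowns) (adjusted p = 0.288). All 13 genes of this class had both knockdown libraries below both controls, against 35.5% of all genes tested. Loxl1, Plod3 and Lox are among them and did not pass.

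Of 6 elastic fibre and microfibril genes 5 fell, against 21.6% of all genes tested. All 6 had both knockdown libraries below both controls, against 35.5%. Emilin1 (mm10 chromosome 5, 30913402 to 30921277, plus strand), a glycoprotein at the surface of elastic fibres, had 459 and 286 in controls and 41.2 and 32.6 in knockdowns. It fell 9.64-fold (log2 −3.27, standard error 0.29, adjusted p = 6.93e-08). Adamtsl4, a microfibril-binding relative of the ADAMTS proteases that lacks the catalytic domain, went from 357 and 244 to 48.4 and 49.6, 5.93-fold lower (adjusted p = 6.74e-07). In both genes the knockdown libraries lay far below either control. Without the GC trend the falls were 5.58-fold and 3.57-fold.

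Of the 4 fibulin genes 3 fell. Efemp2 encodes fibulin-4, which is needed for elastic fibre assembly, and had 2793 and 2684 in controls and 1087 and 1153 in knockdowns (2.44-fold lower, adjusted p = 9.43e-05). An exon of Mus81 on the opposite strand overlaps the 3′ end of Efemp2, and its count is uncertain to that extent. Efemp1, which encodes fibulin-3, went from 114 and 127 to 57.3 and 44.8 (2.34-fold lower, adjusted p = 0.00259). The ratio of the pair was 0.0409 and 0.0472 in controls and 0.0527 and 0.0389 in knockdowns, with overlap. Fbln2 went from 407 and 345 to 212 and 247 (1.64-fold lower, adjusted p = 0.0186), a call lost without control replicate 1 (0.0804), without knockdown replicate 1 (0.143) and with the GC trend removed (0.511). Fbln1 had 34.4 and 13.0 (controls) and 8.07 and 11.5 (knockdowns) and did not pass (log2 interval −2.22 to 0.10, adjusted p = 0.143). Without control replicate 2 it was 3.32-fold lower and passed (0.0142).

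Of 11 basement membrane genes 4 fell and 1 rose, and 6 did not pass. Laminins are trimers of an alpha, a beta and a gamma chain, and the beta chains in the table are alternatives to each other. Lamb2 (mm10 chromosome 9, 108479736 to 108490530, plus strand) had 2386 and 1285 in controls and 687 and 671 in knockdowns and fell 2.58-fold (log2 −1.37, standard error 0.25, adjusted p = 3.15e-04). With the GC trend removed its fall was 1.64-fold (adjusted p = 0.0459). Lamb1 (mm10 chromosome 12, 31265234 to 31329644, plus strand) had 73.8 and 46.3 in controls and 115 and 99.2 in knockdowns and rose 1.82-fold (log2 0.86, standard error 0.30, adjusted p = 0.0326). It was the single matrix gene called higher. Its call was lost when any one of control replicate 2 (adjusted p = 0.213), knockdown replicate 1 (0.184) and knockdown replicate 2 (0.0726) was left out, under quantile normalisation (0.0621), in limma without its trend (0.0838) and in DESeq2 (0.0712).

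The ratio of Lamb1 to Lamb2 was 0.0309 and 0.0360 in controls and 0.168 and 0.148 in knockdowns. Multiplying a library by 1 factor does not change this ratio, and both knockdown libraries were above 4 times either control. Quantile normalisation and removal of the GC trend do change it. The log2 differences of Lamb1 and Lamb2, 0.86 and −1.37 as reported, were 0.74 and −1.04 under quantile normalisation. They were 0.99 and −0.72 with the GC trend removed. Lamc1, the gamma chain shared by many laminins, had 172 and 132 (controls) and 189.7 and 162 (knockdowns) and did not pass (log2 interval −0.31 to 0.74, adjusted p = 0.535). Lama5, an alpha chain, went from 466 and 307 to 219.6 and 262, and its fall of 1.57-fold (adjusted p = 0.0410) was lost without control replicate 1 (0.329), without knockdown replicates 1 (0.212) and 2 (0.0550), with the replicate block (0.0543) and in 6 other settings. Lama4 had 1 read in a knockdown library and gave a ratio of controls to knockdowns of 2.68 (95% counting interval 1.17 to 6.68) from summed reads, with an adjusted p of 0.163.

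Col4a1 and Col4a2 encode the collagen IV chains of most basement membranes. They lie head to head on chromosome 8, and their annotated 5′ ends overlap by 22 bases. Col4a2 had 729 and 479 in controls and 369 and 323 in knockdowns (1.71-fold lower, adjusted p = 0.0139). Col4a1 had 301 and 204 (controls) and 144 and 204 (knockdowns), with overlapping groups (log2 interval −1.07 to 0.02, adjusted p = 0.121). With the GC trend removed their log2 differences were −0.01 and 0.04. The call of Col4a2 was also lost without control replicate 1 (0.157) and without knockdown replicate 2 (0.0843), whereas Col4a1 passed without control replicate 2 (0.0141).

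Col18a1, whose C-terminal fragment is endostatin, fell from 344 and 268 to 161 and 143 (2.00-fold, adjusted p = 0.00284). Without the GC trend it did not pass (log2 −0.22, adjusted p = 0.458). Hspg2, which encodes perlecan, had 725 and 493 (controls) and 362 and 494 (knockdowns) (adjusted p = 0.111), and passed without control replicate 2 (0.00952). The nidogens, which link laminin to collagen IV, did not pass: Nid1 had 51.2 and 48.7 in controls and 47.6 and 76.1 in knockdowns, and Nid2 had 182 and 151 (controls) and 115 and 167 (knockdowns). An exon of Rtraf on the opposite strand overlaps the end of Nid2. Control 1 exceeded control 2 in all 11 basement membrane genes, and the share of all genes that did so was not counted. Leaving out control 1 moved the class median log2 fold change to −0.25, beside 0.0085 over all genes. Leaving out control 2 moved it to −0.81, beside −0.046. As deposited 36.4% of the class was called lower, against 21.6% of all genes. At equal library totals 2 of 11 were called lower, against 13.1%. With the GC trend removed 1 of 11 was, against 14.4%, and the class median was 0.05, beside 0.026. Whether the class fell as a whole was not tested.

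**Figure D3:**
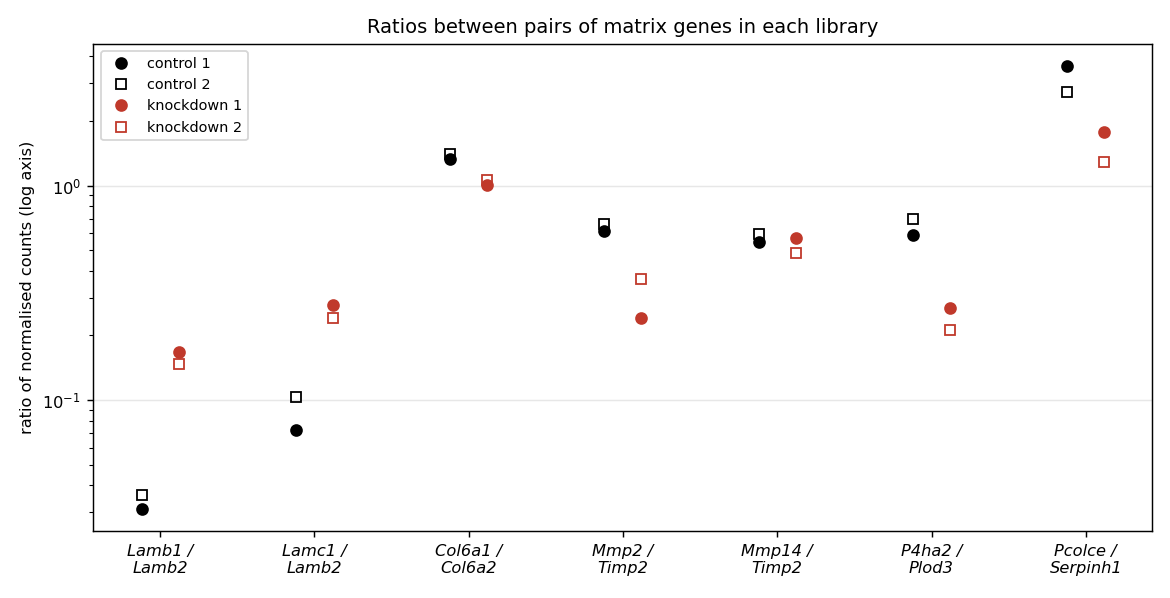
Ratio of normalised counts (y axis, log) for 7 pairs of matrix genes (x axis) in each control (black) and knockdown (red) library. The ratio of Lamb1 to Lamb2 is 0.0309 and 0.0360 in controls and 0.168 and 0.148 in knockdowns, while that of Mmp14 to Timp2 overlaps between groups.

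Among adhesive glycoproteins and proteoglycans, 8 of 9 tested genes fell, against 21.6% of all genes tested, and fibronectin did not. Lrrc17 and Cilp2, with knockdown means of 1.55 and 2.10, entered the test through the controls, so their calls add no support. Olfml3 (mm10 chromosome 3, 103722222 to 103738001, minus strand), a secreted protein with an olfactomedin domain, had 406 and 363 in controls and 46.0 and 40.8 in knockdowns and fell 8.69-fold (log2 −3.12, standard error 0.25, adjusted p = 3.74e-08). Ssc5d, a soluble scavenger receptor protein, went from 192 and 113 to 21.0 and 6.11 (11.8-fold lower, adjusted p = 6.17e-06). Leaving out knockdown replicate 1 gave a fall of 20.8-fold, and leaving out replicate 2 gave 6.74-fold. With the GC trend removed the fall was 6.97-fold.

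Lrrc17, a secreted leucine-rich repeat protein, had 93.5 and 59.2 in controls and 2.42 and 0.679 in knockdowns, from 3 reads and 1 read (adjusted p = 1.88e-06). Cilp2, a relative of the cartilage intermediate layer protein, had 71.8 and 43.0 (controls) and 0.807 and 3.40 (knockdowns), from 1 and 5 reads in the latter (adjusted p = 1.68e-05). Summed reads gave ratios of controls to knockdowns of 50.6 (95% counting interval 19.4 to 188) for Lrrc17 and 25.3 (95% counting interval 11.3 to 70.3) for Cilp2. The fitted fall of Cilp2 was 12.9-fold when knockdown replicate 1 was left out and 31.3-fold when replicate 2 was. It was 9.87-fold with the GC trend removed and 8.70-fold with a pseudocount of 5. In both genes the controls were far above the knockdown libraries, whose few reads limit the precision of the fold.

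Bgn encodes biglycan, a small leucine-rich proteoglycan that binds collagen. It had 6232 and 4596 in controls and 1736 and 1592 in knockdowns, 3.22-fold lower (adjusted p = 1.35e-05). Sparc encodes osteonectin, which binds collagen and regulates fibril formation, and had 5564 and 8259 (controls) and 4506 and 3419 (knockdowns). It was 1.73-fold lower (adjusted p = 0.0193), a call lost without control replicate 2 (0.198), without knockdown replicate 2 (0.140) and with the GC trend removed (0.0709). Thbs3, a thrombospondin, fell from 466 and 345 to 185 and 212 (2.02-fold, adjusted p = 0.00213). Tnc, which encodes tenascin-C, fell from 104 and 56.8 to 29.9 and 41.4 (2.16-fold, adjusted p = 0.0197), a call lost with the GC trend removed (0.0610), without control replicate 1 (0.227) and without knockdown replicate 1 (0.122).

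Fn1 encodes fibronectin, onto which other matrix proteins assemble. It had 2194 and 1328 in controls and 1338 and 1957 in knockdowns, and the groups overlapped fully. Its log2 difference was −0.08, with a 95% interval of −0.61 to 0.45 (adjusted p = 0.845). That interval lies above the fitted log2 fold change of every one of the other 8 tested genes of its class. It overlaps the 95% intervals of Sparc (−1.32 to −0.26), Thbs3 (−1.50 to −0.53) and Tnc (−1.85 to −0.36), and not those of the rest. Whether Fn1 differed from them was not tested. The sign of the Fn1 difference turned under 5 settings, with values given in the closing section. Thbs2, the gene not tested, had 11 reads in controls and 4 in knockdowns.

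Of 9 proteases and inhibitors 5 fell, against 21.6% of all genes tested: Mmp2, Mmp11, Mmp14, Adamts2 and Timp2. Adamts2 entered the test through the controls, so its call adds no support. With the GC trend removed 3 of 9 were called lower, Adamts2 among them, against 14.4% of all genes. At equal library totals 3 were lower, Adamts2 among them, against 13.1%, and 2 higher, against 28.2%. Among the inhibitors Timp1 and Timp3 did not pass. Mmp2, gelatinase A, had 1073 and 939 in controls and 249 and 377 in knockdowns and fell 3.27-fold (log2 −1.71, standard error 0.23, adjusted p = 1.40e-05). Its activator at the cell surface, Mmp14, went from 959.6 and 846 to 584 and 494 (1.68-fold lower, adjusted p = 0.00959), a call lost without knockdown replicate 2 (0.107) and with the GC trend removed (0.0971). Mmp11, stromelysin-3, fell from 267 and 316 to 93.6 and 115 (2.78-fold, adjusted p = 1.20e-04).

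Timp2 inhibits Mmp2 and also bridges it to Mmp14 for activation. It went from 1757 and 1425 to 1031 and 1024 (1.54-fold lower, adjusted p = 0.0266), a call lost without any one of control replicate 1 (0.164) and knockdown replicates 1 (0.0878) and 2 (0.103). The ratio of Mmp2 to Timp2 was 0.611 and 0.659 in controls and 0.242 and 0.368 in knockdowns, and that of Mmp14 to Timp2 was 0.546 and 0.593 (controls) and 0.567 and 0.482 (knockdowns). Mmp2 was lower relative to Timp2 in both knockdown libraries, and the Mmp14 ratio overlapped between groups. Timp1 had 246 and 153 (controls) and 255 and 166 (knockdowns) (adjusted p = 0.837). Timp3, an inhibitor bound to the matrix, had 37.4 and 23.5 (controls) and 40.4 and 61.8 (knockdowns) (log2 interval −0.06 to 1.53, adjusted p = 0.140), and passed upward without control replicate 1 (0.0498) and at equal library totals (0.0261). An exon of Syn3 on the opposite strand overlaps the end of Timp3.

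The ADAMTS proteases had few reads. Adamts2 removes the N-terminal end of procollagen and had 12.8 and 13.8 in controls and 1.61 and 0.679 in knockdowns, from 2 reads and 1 read (adjusted p = 0.0101). The ratio of controls to knockdowns was 12.1 (95% counting interval 3.75 to 61.7) from summed reads. The knockdown mean of Adamts2 was 1.15, under the required 5. Adamts1 and Adamts4 cleave large proteoglycans. Adamts1 had 5.91 and 2.43 in controls and 12.9 and 17.0 in knockdowns, higher in both knockdown libraries, and narrowly did not pass (adjusted p = 0.0505). The ratio of knockdowns to controls was 3.78 (95% counting interval 1.81 to 8.84), which covers counting error only. Adamts1 passed upward in some other settings, among them edgeR (0.0431). Its control mean was 4.17, under the required 5, so it entered the test through the knockdowns. Passes over settings of the same libraries therefore support no rise. Adamts4 had 31.5 and 11.4 (controls) and 6.46 and 12.2 (knockdowns), with overlap (adjusted p = 0.187), and it passed as lower without control replicate 2 (0.0193).

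**Figure D4:**
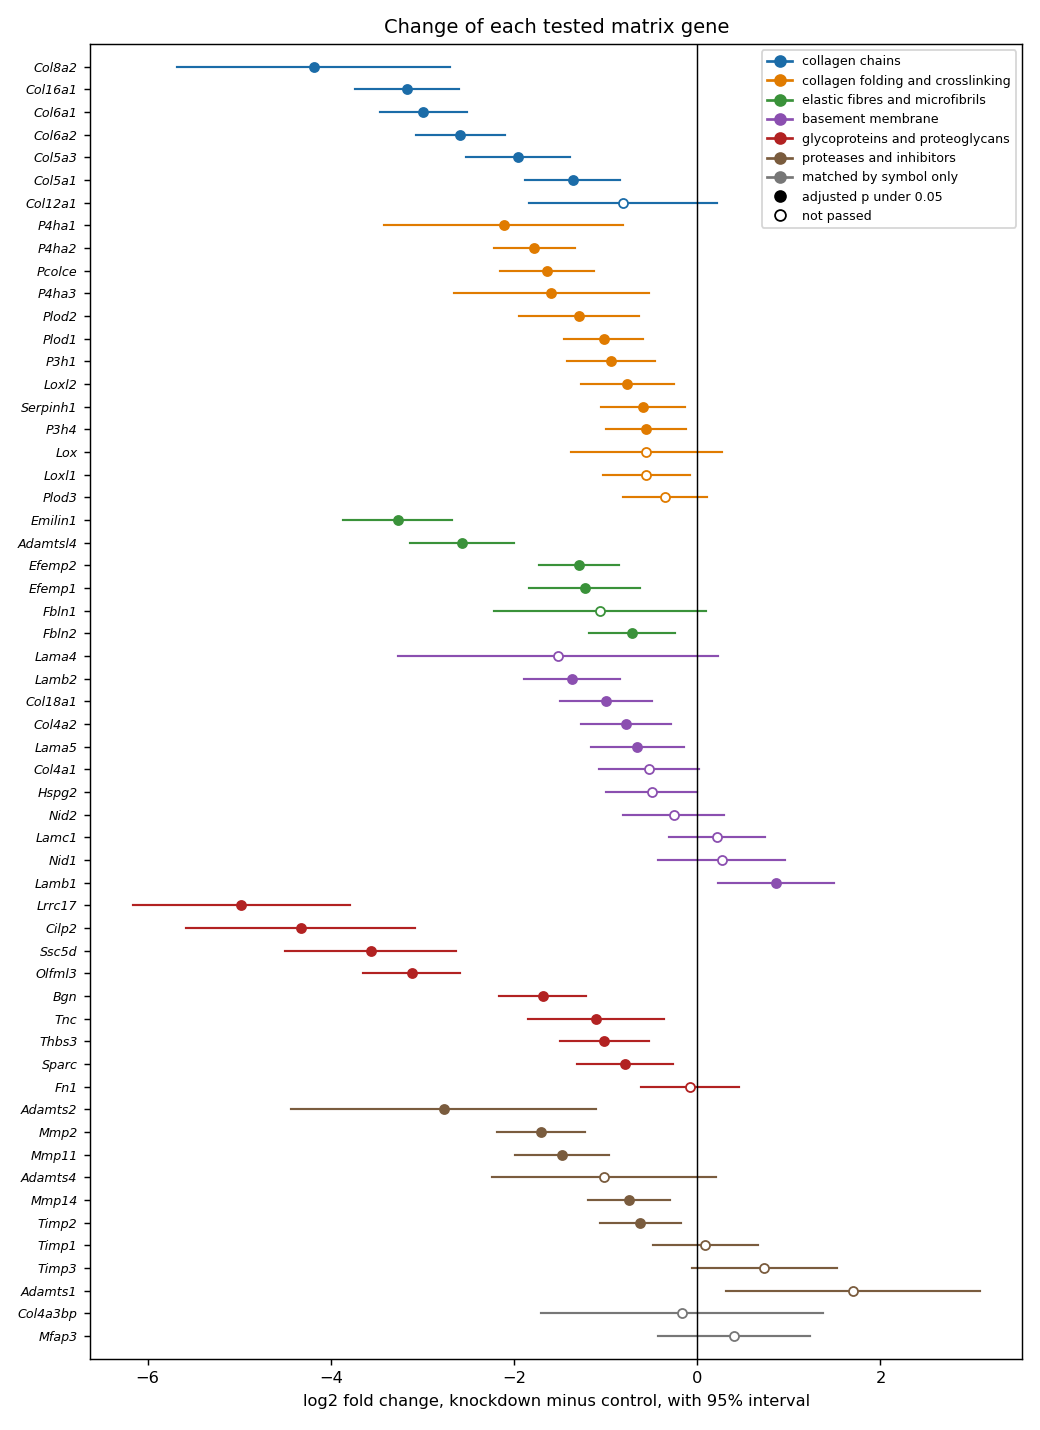
Log2 fold change, knockdown minus control (x axis), of the 57 tested genes (y axis, coloured by class), with 95% intervals and filled points where the adjusted p was under 0.05. Points lie left of 0 for 50 genes, the lowest is Lrrc17 at −4.98, and Lamb1 is the filled point right of 0.

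The 2 genes that match by symbol only had 22.6 and 25.2 in controls and 33.9 and 29.9 in knockdowns for Mfap3 and 4.92 and 7.30 (controls) and 4.04 and 6.79 (knockdowns) for Col4a3bp. Neither passed (adjusted p = 0.461 and 0.887). Without them 38 of 55 tested genes fell.

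Other genes of matrix biology were taken from a list of 129 further symbols. This list was chosen with earlier results of these data known, so its counts are a description and no independent support. They were not repeated in the other settings. Of these 53 were tested, and 31 fell and 1 rose, against 21.6% and 15.9% of all genes, with a median of −0.91. In the secretory and collagen-handling part 8 of 13 fell, and among other secreted matrix proteins 8 of 12. Among membrane receptors for matrix 7 of 12 fell, in turnover 6 of 9 and in TGF-beta input 2 of 7. The receptor gene Itga11 had a knockdown mean of 1.89 and entered the test through the controls. The gene of smallest p was Serpinf1, which encodes the secreted serpin PEDF, at 1680.0 and 1553 in controls and 178 and 222 in knockdowns (log2 −3.02). Ecm1, a secreted glycoprotein, went from 2254 and 1667 to 271 and 378 (log2 −2.59). Mgp, an inhibitor of calcification, went from 461 and 602 to 116 and 75.4 (log2 −2.48). Tgfb3, a ligand that induces matrix genes, went from 289 and 278 to 88.0 and 86.3 (log2 −1.69, adjusted p = 2.46e-05). The gene that rose was Smad7, an inhibitor of TGF-beta signalling, at 51.2 and 38.1 in controls and 78.3 and 107 in knockdowns (log2 1.04, adjusted p = 0.0147), named after its values were seen. Bmp1, the procollagen C-proteinase that Pcolce enhances, was also named in this way and fell from 724 and 657 to 328 and 357 (log2 −1.01, adjusted p = 0.00101).

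The labelled cell type was checked against marker genes. Of 13 fibroblast markers 4 were present (S100a4, Vim, Twist2 and Prrx1), with summed normalised counts of 21360 and 16711 in controls and 9063 and 11106 in knockdowns, and S100a4 and Vim fell. Vim made up most of that sum, at 20136 and 15531 (controls) and 8437 and 10504 (knockdowns). The other two did not pass and overlapped between groups: Twist2 had 474 and 394 (controls) and 449.6 and 422 (knockdowns), and Prrx1 had 68.9 and 95.8 (controls) and 71.8 and 79.5 (knockdowns), with adjusted p = 0.980 and 0.820. Of the neural and glial markers 2 of 6 (Map2 and Nes) were present, with sums of 238 and 245 in controls and 132 and 151 in knockdowns, and Nes fell. Of the chondrocyte and bone markers 1 of 7 (Runx2) was present, at 55.1 and 38.1 (controls) and 41.2 and 55.0 (knockdowns). The listed epithelial, endothelial, leukocyte, smooth muscle, skeletal muscle and adipocyte markers were not analysed here. The part of a changed cell mixture in the matrix result was not tested.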

How the data were processed

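The authors deposited 1 table of signal values, which its name calls normalised counts. The tools and build listed in the submitters' processing notes are DESeq2, HTSeq, STAR, cutadapt 1.8.3, bcl2fastq 2.17.1.14 and mm10, with no role or order. How genes were selected for the table, and whether molecular identifiers or strand were used in counting, is not stated. Within every library 100% of the values were whole multiples of 1 step (within 0.01), so reads could be recovered. No value is 0. Counting-error intervals take reads as independent molecules.

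Genes with a mean of at least 5 were fitted with limma 3.58.1 (R 4.3.3) on log2(value + 1) with a mean-variance trend, over all 4 libraries. edgeR 4.0.16 and DESeq2 1.42.0 used recovered reads with the authors' scaling, and edgeR called 999 genes lower and 730 higher over the whole table. Other alternatives were the pseudocount, the filter on low values, TMM, equal-total and quantile scaling, limma without its trend, a replicate block, a GC trend removed by loess, and each library left out. The fits were tested on simulated data with the same dispersion for every gene, which the real data need not have. There limma recovered 57.1% of 2-fold and 98% of 4-fold changes, and DESeq2 39.8% and 92.9%. A gene that did not pass is therefore not shown to be unchanged. Replicates differed by more than sampling noise (chi-square divided by its degrees of freedom, 16.5 in controls and 13.8 in knockdowns). Coordinates are from GENCODE M21 (mm10) and promoter sequences from RefSeq (GRCm38.p6).

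The members, classes and lists were chosen with earlier results of these data known. Genes named were the 4 of smallest p in each class, those called higher, and the 2 most abundant that did not pass in each class; the other members were named after their values were seen. From the further list, the 4 of smallest p were named.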

Additional observations from a re-analysis of the deposited data

How the results depend on the processing

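Over the settings other than leaving out a library, 26 to 41 matrix genes were called lower, all within 1.5 times the 38 reported. The share of all genes called lower in these settings ran from 13.1% to 25.1%. The number called higher, 1 as reported, was 2 at a pseudocount of 5, with no filter, with TMM scaling and in edgeR, 3 at equal library totals, 0 under quantile normalisation and in DESeq2, and 0 to 3 when a library was left out. Equal library totals gave a matrix gene median of −0.67 in place of −1.01, while the median of all genes went from −0.01 to 0.34. They gave 603 lower and 1299 higher genes in the whole table. Over all genes, 655 were lower in limma without its trend and 663 with the GC trend removed (added after seeing the data), and 438 to 758 were higher when a library was left out. The median of the matrix genes ran from −1.18 to −0.81 over the libraries left out.

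The sign of the log2 difference turned mostly in genes that had not passed. Fn1 was 0.28 at equal totals, 0.27 under quantile normalisation, 0.13 with the GC trend removed, and ran from −0.44 to 0.28 over the libraries left out (0.20 without knockdown replicate 1). Plod3 was 0.00011, 0.056 and 0.22 in the former 3 settings. Col4a3bp was 0.14 at equal totals and ran from −0.48 to 0.15 over the libraries left out (0.081 without control replicate 2). Nid2 was 0.092 at equal totals, 0.054 with the GC trend removed and −0.53 to 0.011 over the libraries left out. Over the libraries left out Timp1 ran from −0.25 to 0.43 and Nid1 from −0.067 to 0.60. With the GC trend removed Col4a1 was 0.036, Hspg2 0.28, Loxl1 0.23 and Mfap3 −0.0058, and the called genes Lama5 and P3h4 were 0.065 and 0.077. Why these turned was not tested.

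The labels number the libraries of each group, but the numbers are not stated to pair them, and the deviations of same-numbered libraries correlated at −0.129 across genes. With the replicate block 35 matrix genes were lower and 1 higher. With crossed numbers (added after seeing the data) 41 were lower and 2 higher, and 1154 and 891 in the whole table. For the 7 genes with 3 reads or fewer in a library depth limits the size of the change.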
